A study of Mus musculus with 16 samples.

Results

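The 34 genes described here make up a type I interferon response: antiviral effectors, nucleic acid sensors, transcription factors, a feedback protease and the 2 subunits of the type I interferon receptor. They were read in mouse liver lacking the autophagy gene Atg7, the stress response factor Nrf2, or both. The members are a fixed list of symbols, matched to the gene names of the non-control probes on the array. Each of the 34 had a probe, 54 probes in all, out of 41174 probes and 28090 gene names. Of these, 33 had a probe bright enough to test. Oas1g, an oligoadenylate synthetase, had a single probe that was well above background in 0 of 24 channels, and no change was tested for it.

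Liver RNA of a pair of genotypes was hybridised to each Agilent array, in 2 colours. The genotypes were wild type, Nrf2–/– (Nrf2 KO), Atg7F/F:Mx1-Cre (Atg7 cKO, floxed Atg7 removed by Cre) and Atg7F/F:Mx1-Cre:Nrf2-/- (double KO). The 16 arrays form 8 dye-swapped experiments, and both arrays of a swap together are 1 replicate, so that each of the 4 comparisons has n = 2 experiments. Wild type was the partner of Nrf2 KO in experiments 1 and 4, of Atg7 cKO in 2 and 5, and of double KO in 3 and 6. Experiments 7 and 8 paired double KO with Atg7 cKO directly. Mice of all groups received pIpC, a double-stranded RNA mimic, from 8 weeks of age. Livers were taken 4 weeks after injection per the design text, while the growth protocol speaks of 4 weeks of pIpC treatment. The labels give no number of animals and do not say whether wild-type RNA was shared between experiments, so the p-values measure the spread between these experiments, which may be partly technical.

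Type I interferons are secreted proteins that bind the receptor formed by Ifnar1 and Ifnar2. The receptor's kinases phosphorylate Stat2, which acts with Irf9 in a complex that enters the nucleus and binds a promoter element called ISRE. Interferon gamma acts mainly through a different element called GAS. The induced genes encode proteins that cut, sense or sequester viral RNA, and in liver both hepatocytes and resident macrophages can express them. pIpC is itself a classical inducer of type I interferon, and the Mx1 promoter that drives Cre in this model is an interferon-induced promoter, active after pIpC in hepatocytes and in blood-forming cells. Every group had received pIpC and there is no group without it, so the values below are differences between genotypes on top of that shared exposure. In RNA from whole liver, fewer cells of a type and less RNA per cell cannot be told apart.

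In the 24 channels of experiments 1 to 6, 43.4% to 57.2% of spots were called well above background. Of the targeted genes, the Nfe2l2 (Nrf2) probe A_51_P411271 had a log2 ratio of -3.88 in Nrf2 KO, -3.71 in double KO and 1.20 in Atg7 cKO. The Atg7 probe A_52_P34494 had -0.81 in Atg7 cKO, -0.73 in double KO and -0.05 in Nrf2 KO. These go with the labels, as does the direct value of that Nfe2l2 probe, -6.49. Another probe of each gene (A_52_P523835 and A_52_P550935) had -0.06 and -0.07 in Nrf2 KO, -0.02 and -0.08 in Atg7 cKO, and 0.06 and -0.03 in double KO. On the direct arrays the Atg7 probes A_52_P34494 and A_52_P550935 had 0.5 and 0.51, that is, higher in double KO than in Atg7 cKO. Their ratios to wild type differed little between these groups, and the reason was not tested. In wild-type channels the Xist probe A_51_P145453 had log2 signals of 5.76 to 5.80 in the first set (experiments 1 to 3) and 11.15 to 11.21 in the second (4 to 6), and Ddx3y (A_51_P402994) read 7.65 to 7.78 against 5.78 to 5.81. The 2 experiments of each comparison with wild type therefore came from animals that differ in these sex-linked transcripts. The spread between them, and so the SDs and p-values of these comparisons, includes any effect of that difference.

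Interferon response genes were higher in livers without Atg7 and in livers without both Atg7 and Nrf2. They were close to wild type in livers without Nrf2 alone. A member is called higher or lower where limma's Benjamini-Hochberg adjusted p, over 16427 genes, is under 0.05. On the direct arrays 10 of 33 members were called higher in double KO than in Atg7 cKO and 1 lower, against 6.75% and 8.07% of all genes. With experiments 7 and 8 fitted alone 0 were called, so a further step in double KO is less certain. In Atg7 cKO 30 of 33 tested members were called higher and 0 lower, against 23.4% of all genes called higher and 16.3% called lower. In double KO 33 of 33 were called higher and 0 lower, against 21.4% and 16%. Over all genes this is 3837 higher and 2674 lower in Atg7 cKO and 3516 and 2626 in double KO; by the deposited log ratios it is 3267 and 3424, and 3288 and 3760, with 25 and 30 members called higher. The median log2 ratio of the 33 was 0.90 in Atg7 cKO and 1.21 in double KO, beside 0.00 and 0.01 over all genes tested. By experiment the medians were 0.90 and 0.80 in Atg7 cKO, and 1.21 and 1.18 in double KO. In Atg7 cKO 15 members passed a 2-fold increase and in double KO 19 did, where 4.06% and 4.2% of all genes passed it.

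**Figure D1:**
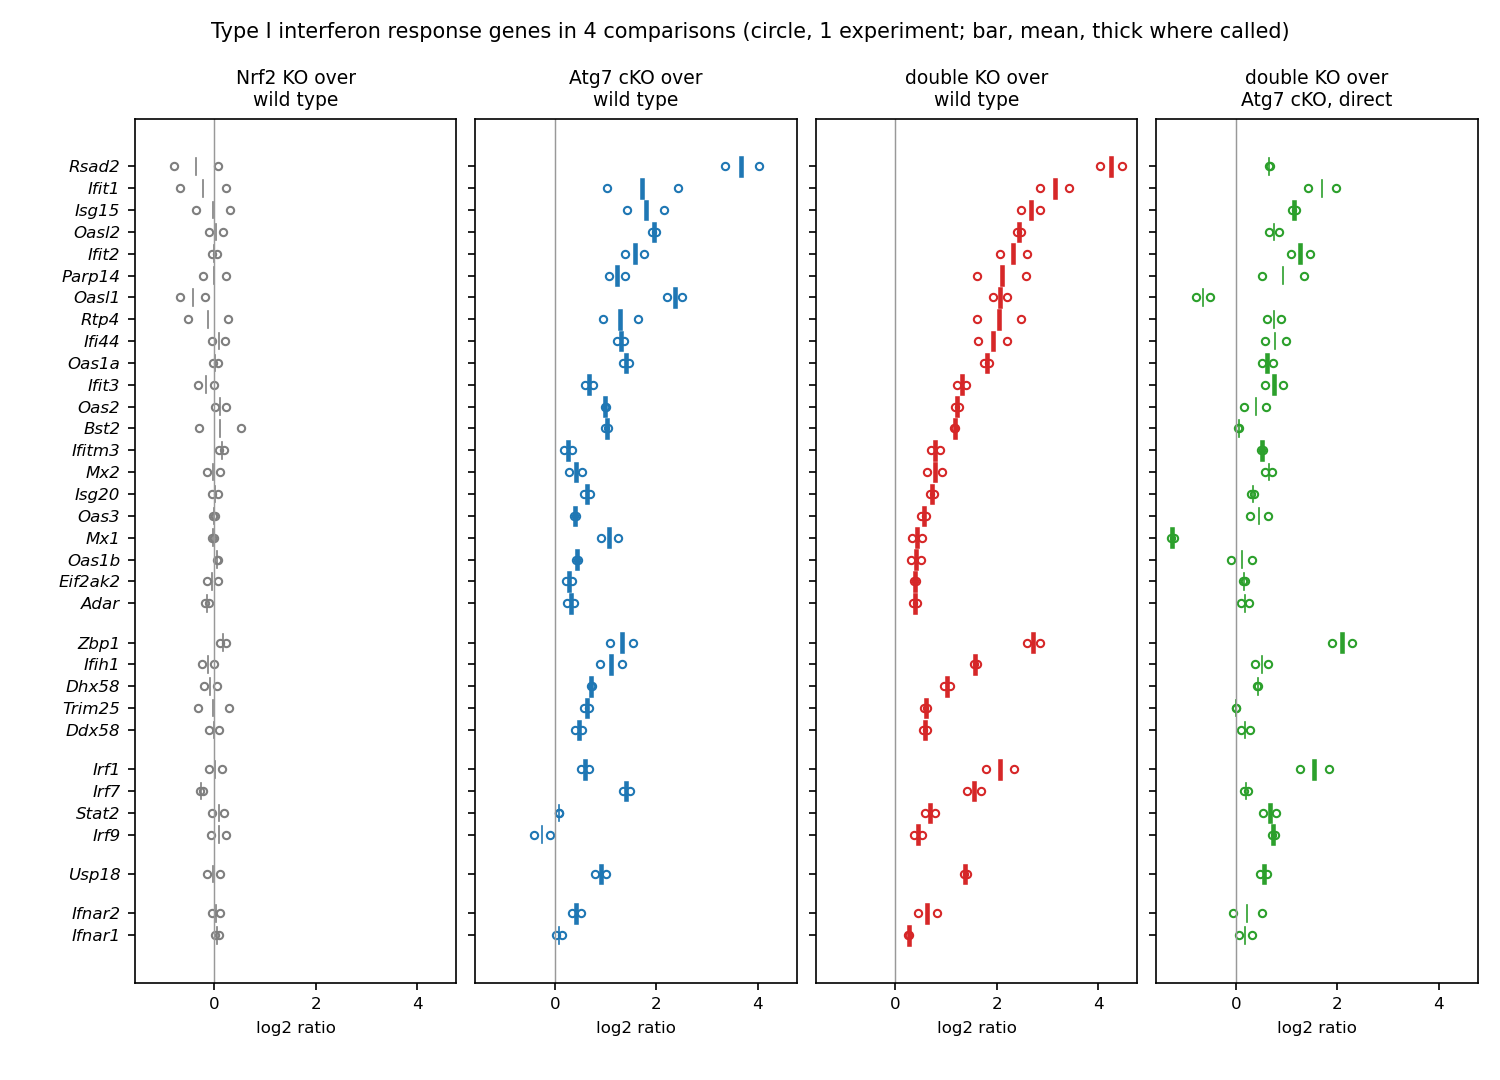
Log2 ratios (x axis) of the 33 tested members (rows, grouped as effectors, sensors, transcription factors, feedback and receptor subunits, each sorted by the double KO value) in the 4 comparisons. Circles are the 2 experiments, each the mean of a dye swap, and bars their mean, thick where the member was called. The Nrf2 KO circles lie around 0, the double KO circles all lie above 0, and in the direct comparison Mx1 and Oasl1 alone have both circles clearly below 0.

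The 33 tested members are not all alike in how they entered. Mx1, Oas1b and Oas3 were well above background in 1, 2 and 0 of 12 wild-type channels, so that they passed the filter through channels of Atg7 cKO and double KO, where they are high. With the filter raised to 12 of 24 channels these 3 drop out and 27 of 30 members are called higher in Atg7 cKO and 30 of 30 in double KO. Signals of the 2 knockout experiments lay above all 6 wild-type signals for 30 members in Atg7 cKO and for 33 in double KO. The exceptions in Atg7 cKO were Ifnar1 and Stat2, whose signals overlapped wild type, and Irf9, whose signals of 8.50 and 8.50 lay below all 6 wild-type signals (8.60 to 8.95).

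Promoter sequence was available from RefSeq (build GRCm38.p6) for 25 members, as windows of the 250 bases before and 50 after an annotated start. Most had 1 window, Ifit2, Irf1 and Irf9 had 2, and Isg20 and Adar had 3, and a gene was counted where any of its windows held a match. Mx1, Mx2, Oas1b, Oas2, Usp18, Dhx58, Rtp4, Zbp1 and Parp14 were not among them. A core of the ISRE (GAAA, then any 2 bases, then GAAA) was searched on both strands and found for 13 of the 25 members (52%, exact 95% interval 31.3% to 72.2%), and for 3.99% of the 27025 genes with a window. The letters TTCNNNGAA, a core of the GAS element, were found for 10 of 25 (40%, 21.1% to 61.3%) and for 9.55% of all these genes. Within the 250 upstream bases alone the ISRE letters were found for 9 of 25 (36%) and the GAS letters for 7 of 25 (28%), beside 3.46% and 8.13% of all genes. A match is a description of letters, not a site shown to be bound. Oasl1, Oasl2, Irf7, Irf9, Ifi44 and Trim25 had a window but no match to either set of letters. The stretches below were picked from the members with an upstream match. Capitals mark the matched letters, which overlap one another in Isg15 and Oas1a and stand on the opposite strand in Ifit1, Ifit3 and Rsad2.
Isg15: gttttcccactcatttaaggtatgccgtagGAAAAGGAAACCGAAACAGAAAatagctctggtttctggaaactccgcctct
Ifit1: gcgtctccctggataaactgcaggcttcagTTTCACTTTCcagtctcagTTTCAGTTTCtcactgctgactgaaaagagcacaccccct
Ifit3: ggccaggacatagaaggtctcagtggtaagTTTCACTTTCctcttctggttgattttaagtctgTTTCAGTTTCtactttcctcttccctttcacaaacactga
Rsad2: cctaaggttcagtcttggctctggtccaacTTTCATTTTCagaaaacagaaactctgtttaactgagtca
Oas1a: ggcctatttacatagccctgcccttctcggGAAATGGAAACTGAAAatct
Irf1: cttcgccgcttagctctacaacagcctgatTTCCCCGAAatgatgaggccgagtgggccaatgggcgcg
All are written in the direction of the gene and lie upstream of its start. Isg15 is at chr4:156200845-156200926 (minus strand), Ifit1 at chr19:34640755-34640843 and Ifit3 at chr19:34583343-34583446 (both plus strand). Rsad2 is at chr12:26456533-26456602 and Oas1a at chr5:120907526-120907575 (both minus strand), and Irf1 at chr11:53769894-53769962 (plus strand). The first 5 hold ISRE letters and Irf1 holds GAS letters, with no ISRE letters in either of its windows.

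**Figure D2:**
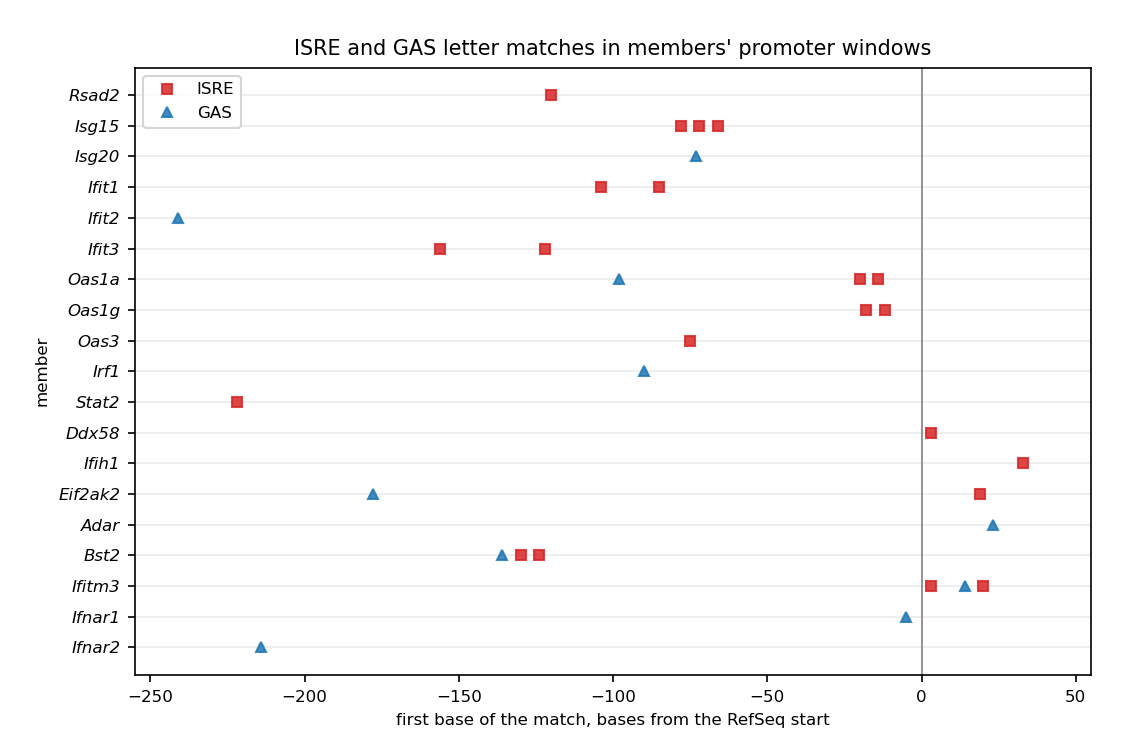
Position of the first base of each ISRE match (squares) and GAS match (triangles), in bases from the RefSeq start (x axis), for the members with any match (rows). The ISRE matches of Isg15, Ifit1, Ifit3, Rsad2, Oas3, Bst2 and Stat2 begin between base -222 and base -66, and those of Ddx58, Ifih1, Eif2ak2 and Ifitm3 after the start.

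Among the effectors, Rsad2 (viperin, an enzyme that makes a chain-terminating nucleotide) had the largest ratios. Its log2 signal was 7.66 to 8.33 (median 8.25) over the 6 wild-type experiments, 7.73 and 7.53 in Nrf2 KO, 12.19 and 11.68 in Atg7 cKO, and 12.70 and 12.31 in double KO. Neither Atg7-deficient group overlaps wild type, and they do not overlap each other. In log2 units the ratio came to 3.68 ± 0.48 (SD, n = 2) in Atg7 cKO (12.8-fold, adjusted p = 0.00108) and 4.26 ± 0.32 in double KO (19.2-fold, adjusted p = 0.00079). Its other probes, A_51_P505132 and A_51_P505134, gave 2.46 and 2.56 in Atg7 cKO and 2.63 and 2.73 in double KO, also called higher but over 1 log2 unit smaller. The upstream stretch of Rsad2 shown above holds a single ISRE match, beginning at base -120 from the start.

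Isg15, a ubiquitin-like protein joined to other proteins during the response, had wild-type signals of 8.03 to 9.19 (median 8.82). It read 10.59 and 10.25 in Atg7 cKO and 12.05 and 11.55 in double KO, with no overlap between the groups. In log2 units the ratio came to 1.79 ± 0.52 in Atg7 cKO (adjusted p = 0.00437) and 2.67 ± 0.28 in double KO (adjusted p = 0.00158). Isg20, an RNA exonuclease, changed less: 0.64 ± 0.09 in Atg7 cKO and 0.73 ± 0.05 in double KO (adjusted p = 0.00175 and 0.00128).

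The Ifit proteins bind foreign RNA ends and block its translation. Ifit1 signals were 9.55 and 9.07 in Atg7 cKO and 10.68 and 10.82 in double KO, all above the wild-type range of 7.12 to 8.14. The ratio to wild type, in log2, was 1.72 ± 0.99 in Atg7 cKO (adjusted p = 0.0217) and 3.14 ± 0.40 in double KO (8.82-fold, adjusted p = 0.00371). The wide SD in Atg7 cKO comes from 2.42 in experiment 2 against 1.03 in experiment 5, and without experiment 2 that call is lost. The wild-type signal itself averaged 7.23 in the first set and 8.05 in the second. Ifit2 had 1.57 ± 0.27 and 2.33 ± 0.38, and Ifit3 had 0.68 ± 0.12 and 1.31 ± 0.13, in Atg7 cKO and double KO. For these 3 genes each experiment of double KO exceeded each experiment of Atg7 cKO.

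Oligoadenylate synthetases make the messenger that switches on an antiviral RNase, and the Oasl proteins are relatives that act in RNA sensing and translation. Oas1a rose by 1.40 ± 0.08 on the log2 scale in Atg7 cKO and by 1.80 ± 0.07 in double KO (adjusted p = 0.000363 and 0.000332). Oas2 rose by 0.99 ± 0.02 and 1.21 ± 0.06, and Oasl2 by 1.96 ± 0.05 and 2.44 ± 0.06. Oas1b had 0.43 ± 0.02 in Atg7 cKO and 0.41 ± 0.14 in double KO, where 0 of 4 wild-type channels were well above background and it was at least 1.33-fold higher. Oas3 was at least 1.31-fold higher in Atg7 cKO and at least 1.48-fold higher in double KO, with 0 of 4 wild-type channels above background in each; its other kept probe was called in neither (0.12 and 0.15). A bound of this kind sets the knockout signal against the higher of the dim probe's own signal and the lowest signal among probes well above background. The Oas1 genes are close copies of one another, and whether these probes tell them apart was not tested.

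Oasl1 ran the other way between the Atg7-deficient groups. Its signals were 12.04 and 11.66 in Atg7 cKO and 10.98 and 11.03 in double KO, against 7.95 to 9.53 in wild type and 7.77 and 7.84 in Nrf2 KO. Over wild type its ratio in log2 units was 2.36 ± 0.21 in Atg7 cKO and 2.07 ± 0.20 in double KO (adjusted p = 0.000888 and 0.000999). The wild-type signal stood at 9.53 and 9.45 on the Atg7 cKO arrays and at 7.95 and 8.52 on the Nrf2 KO arrays, so that it was higher beside the brighter partner. The part of this in the ratios was not tested.

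Mx1 is the dynamin-like antiviral GTPase whose promoter drives Cre here. It was the other member with lower signals in double KO than in Atg7 cKO in both sets of experiments. Signals were 6.94 and 7.21 in Atg7 cKO and 6.43 and 6.52 in double KO, against 5.88 to 6.10 in wild type, where 1 of 12 channels was well above background. Mx1 was at least 2.10-fold higher in Atg7 cKO (log2 ratio 1.07 ± 0.25, adjusted p = 0.0017) and had 0.43 ± 0.14 in double KO (adjusted p = 0.0236). For this dim probe the scale matters: the deposited log ratios gave 3.21 in Atg7 cKO and 2.09 in double KO. The second Mx1 probe, A_52_P614259, had 0.45 and 0.16, and the double KO value was not called (adjusted p = 0.0856). Mx2, its relative, had 0.41 ± 0.18 in Atg7 cKO and 0.78 ± 0.21 in double KO (adjusted p = 0.0371 and 0.00546), and the direct ratio of double KO over Atg7 cKO, 0.65 ± 0.11, was not called (adjusted p = 0.0602).

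**Figure D3:**
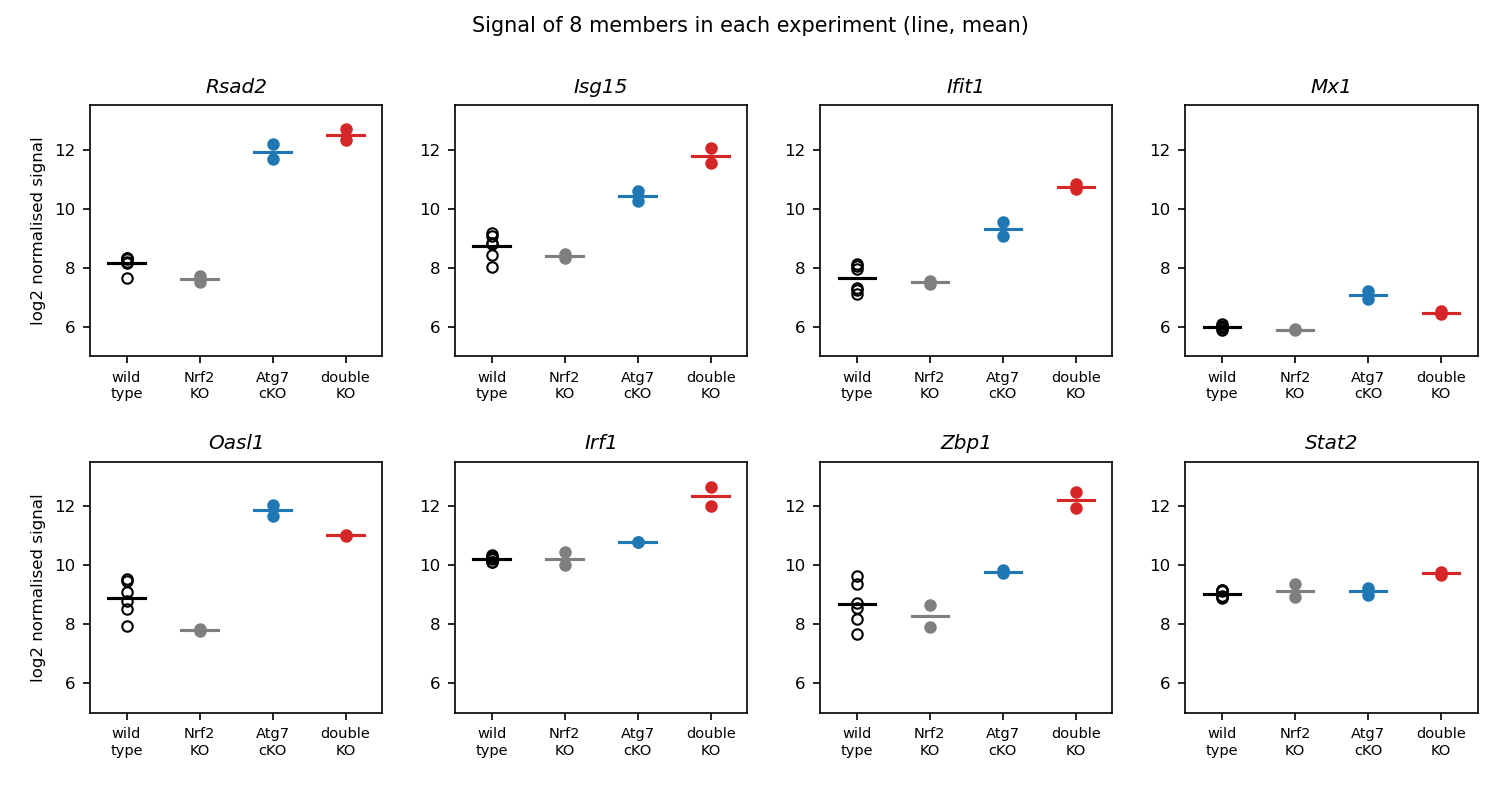
Log2 normalised signal (y axis) of 8 members in each experiment of wild type (6 open circles) and of Nrf2 KO, Atg7 cKO and double KO (2 filled circles each), with the mean as a line. Rsad2, Isg15, Ifit1, Irf1 and Zbp1 step up from Atg7 cKO to double KO, Mx1 and Oasl1 step down, and Stat2 lies above every wild-type circle in both experiments of double KO.

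The remaining effectors rose in both Atg7-deficient groups. Parp14, an ADP-ribosyltransferase, had 1.23 ± 0.22 in Atg7 cKO and 2.10 ± 0.69 in double KO. Rtp4, a chaperone for membrane receptors, had 1.29 ± 0.49 and 2.04 ± 0.61. Ifi44 had 1.30 ± 0.10 and 1.92 ± 0.39, and Bst2 (tetherin, which holds budding virus on the cell surface) 1.02 ± 0.04 and 1.17 ± 0.02. Smaller ratios were seen for Ifitm3, which blocks viral entry (0.25 ± 0.11 and 0.79 ± 0.12), Eif2ak2, the kinase PKR (0.27 ± 0.08 and 0.39 ± 0.03), and Adar, an RNA-editing enzyme (0.31 ± 0.10 and 0.39 ± 0.06). Secondary probes were weaker for Ifi44 (0.58 in double KO, A_52_P550858) and Parp14 (0.41 in double KO, A_51_P341767), both called higher. The second probe of Adar was not called in Atg7 cKO (0.17, adjusted p = 0.0942).

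The sensors detect viral RNA or DNA and feed the response. Together with the ubiquitin ligase Trim25 they make a group of 5. All 5 were called higher in Atg7 cKO and in double KO, with medians of 0.72 and 1.01, where 23.4% and 21.4% of all genes were called higher. Zbp1, which senses Z-form nucleic acid, separated the groups most: 9.73 and 9.82 in Atg7 cKO against 12.48 and 11.95 in double KO, with 7.66 to 9.63 in wild type. Against wild type its log2 ratio came to 1.32 ± 0.32 in Atg7 cKO and 2.72 ± 0.19 in double KO (adjusted p = 0.00185 and 0.000679). The highest wild-type signals of Zbp1, 9.63 and 9.36, were again those read beside double KO. Ifih1 (MDA5) had 1.11 ± 0.30 and 1.58 ± 0.05, and Dhx58 (LGP2) 0.72 ± 0.02 and 1.01 ± 0.08. Ddx58 (RIG-I) had 0.47 ± 0.09 and 0.58 ± 0.05 with its brightest probe, while its other 3 probes gave 0.06 to 0.19 and were called in neither group. Trim25, the ubiquitin ligase that activates RIG-I, had 0.63 ± 0.07 and 0.60 ± 0.04.

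The transcription factors split. Irf7, the factor that amplifies interferon production, rose by a similar amount in Atg7 cKO (1.41 ± 0.09, adjusted p = 0.000763) and double KO (1.55 ± 0.20, adjusted p = 0.000681). Irf1, a factor of the interferon gamma and type I responses, read 10.78 and 10.80 in Atg7 cKO, close above the wild-type range of 10.10 to 10.33, and 12.66 and 12 in double KO. Against wild type its log2 ratio came to 0.60 ± 0.11 in Atg7 cKO (adjusted p = 0.0258) and 2.06 ± 0.38 in double KO (adjusted p = 0.000929). The second Irf1 probe, A_52_P175685, gave 0.08 in Atg7 cKO, not called, and 0.62 in double KO, called higher. Stat2 and Irf9, which act together in the ISRE-binding complex, were not called in Atg7 cKO. Stat2 had 0.08 ± 0.01 there (95% interval -0.12 to 0.28) and 0.69 ± 0.14 in double KO (adjusted p = 0.00312). Irf9 had -0.26 ± 0.23 in Atg7 cKO (95% interval -0.53 to 0.02, adjusted p = 0.115) and 0.45 ± 0.11 in double KO (adjusted p = 0.0266). The second Irf9 probe, A_52_P176013, had a log2 ratio of 0 in double KO and was not called (adjusted p = 0.957). The double KO call of Irf9 was lost in 4 of 15 alternative settings. Among them were the deposited log ratios (0.42, adjusted p = 0.0638) and the mean of all kept probes. With slide or set as a block, or with the 12 arrays fitted singly, Irf9 is called lower in Atg7 cKO.

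Usp18, the protease that removes Isg15 from proteins and restrains the receptor, had 0.90 ± 0.14 in Atg7 cKO and 1.38 ± 0.04 in double KO (adjusted p = 0.00167 and 0.000752). Of the receptor subunits, Ifnar2 had 0.42 ± 0.12 and 0.63 ± 0.27, both called. The Atg7 cKO call was lost in 5 of 15 alternative settings for Ifnar2, 7 for Ifitm3, and 6 each for Eif2ak2 and Mx2, in each case also by the deposited log ratios. Ifnar1 had 0.08 ± 0.07 in Atg7 cKO, not called (95% interval -0.04 to 0.21), and 0.26 ± 0.01 in double KO (adjusted p = 0.0128).

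In livers lacking Nrf2 alone these genes stayed near the wild-type level. In Nrf2 KO 0 of 33 members were called higher and 0 lower by limma, where 0% of all genes were called higher and 0.0122% lower, and 2 members and 607 genes had an unadjusted p under 0.05. The median of the 33 was 0.00, and 5 members were above 0 and 5 below 0 in both experiments. The lowest ratio was that of Oasl1, -0.43 ± 0.36, with -0.18 and -0.69 in its experiments, followed by Rsad2 at -0.36 ± 0.61 and Irf7 at -0.26 ± 0.04. The 95% interval was -0.81 to -0.06 for Oasl1 and -0.46 to -0.05 for Irf7. Ifit1 had 0.23 in experiment 1 and -0.69 in experiment 4, and Bst2 0.53 and -0.31, so the 2 experiments disagreed in sign for several members.

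The direct arrays set double KO against Atg7 cKO, groups that by their labels differ in Nrf2. On these arrays the Atg7 probes also read higher in double KO (0.5 and 0.51), and the part of this in the ratios was not tested. By the deposited log ratios, 10 of 33 members were called higher in double KO than in Atg7 cKO and 1 lower, where 6.75% of all genes were called higher and 8.07% lower. The members called higher were Isg15, Ifit2, Ifit3, Oas1a, Ifitm3, Irf1, Irf9, Stat2, Usp18 and Zbp1. The count rests on both direct experiments: it was 1 without experiment 7, 2 without experiment 8, and 7 or 8 without any other. Experiments 7 and 8 fitted alone called 0 higher and 0 lower, and the 16 arrays fitted singly called 18 and 2, so that the 10 calls draw on the spread of the other comparisons. Over 13 alternative settings Zbp1 was called in 12, Irf1 in 11, Ifit3, Oas1a and Stat2 in 10, and Ifit2 and Irf9 in 9, while Ifitm3 was called in 6, Isg15 in 5 and Usp18 in 3. The median was 0.51 (0.57 and 0.52 by experiment), beside 0.01 over all genes, and 28 members were above 0 in both experiments.

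Zbp1 had the largest direct ratio, 2.30 and 1.90 in experiments 7 and 8 (mean 2.10 ± 0.28, 4.28-fold, adjusted p = 0.00238). Irf1 had 1.83 and 1.27 (1.55 ± 0.39, adjusted p = 0.00822). Ifit2 had 1.27 ± 0.27, Isg15 1.15 ± 0.05 and Ifit3 0.76 ± 0.25, with adjusted p = 0.0201, 0.0403 and 0.0207. The ISRE complex partners Irf9 and Stat2 had 0.74 ± 0.05 and 0.67 ± 0.18 (adjusted p = 0.0181 and 0.0243). Ifit1 had a larger mean of 1.70 ± 0.39 but a wide error and was not called (95% interval 0.36 to 3.04, adjusted p = 0.0888). Rsad2, the member with the largest ratios to wild type, had 0.65 and 0.67 in the direct experiments and was not called (95% interval -0.12 to 1.44). Bst2 and Trim25 had 0.06 ± 0.01 and 0.00 ± 0.01, with intervals of -0.42 to 0.54 and -0.40 to 0.41.

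Mx1 was the member called lower, with -1.22 and -1.28 (mean -1.25 ± 0.04, adjusted p = 0.00548). Its second probe had -1.72 in the same comparison. The Mx1 call was lost without experiment 7, and the gene drops out under the stricter filter on dim probes. Oasl1 had -0.79 and -0.51 (mean -0.65 ± 0.19, 95% interval -1.11 to -0.20, adjusted p = 0.0672). Second probes changed a call for Irf9 (0.47, not called, A_52_P176013) and for Parp14, whose probe A_52_P97680 was called higher (1.13, adjusted p = 0.0253) while the brightest was not (0.93).

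The same difference can be read through wild type, from experiments 2, 3, 5 and 6. There 3 of 33 members were called higher, Irf1 (1.47, adjusted p = 0.0275), Zbp1 (1.40, adjusted p = 0.0231) and Ifitm3 (0.54, adjusted p = 0.0476), and 0 lower, where 1.75% of all genes were called higher and 3.23% lower. The unadjusted p was under 0.05 for 17 members and 3620 genes. This count was 0 without experiment 1, 3 or 4, 1 without experiment 2, 5 or 6, and 11 with the sets of experiments as a block. The 3 genes were among those called higher in the direct reading, and 29 members were above 0 in both readings and Mx1 and Oasl1 below 0 in both. The readings stand on different scales, since the corrected signals give smaller ratios than the deposited ones: the median in double KO over wild type was 1.21 by the former and 1.90 by the latter. On the deposited scale the median of the 33 was 0.53 through wild type and 0.51 directly, Zbp1 had 1.45 and 2.10, Irf1 1.57 and 1.55, and Mx1 -1.12 and -1.25. On that scale 0 members were called through wild type, and the calls of Irf1, Zbp1 and Ifitm3 were lost.

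**Figure D4:**
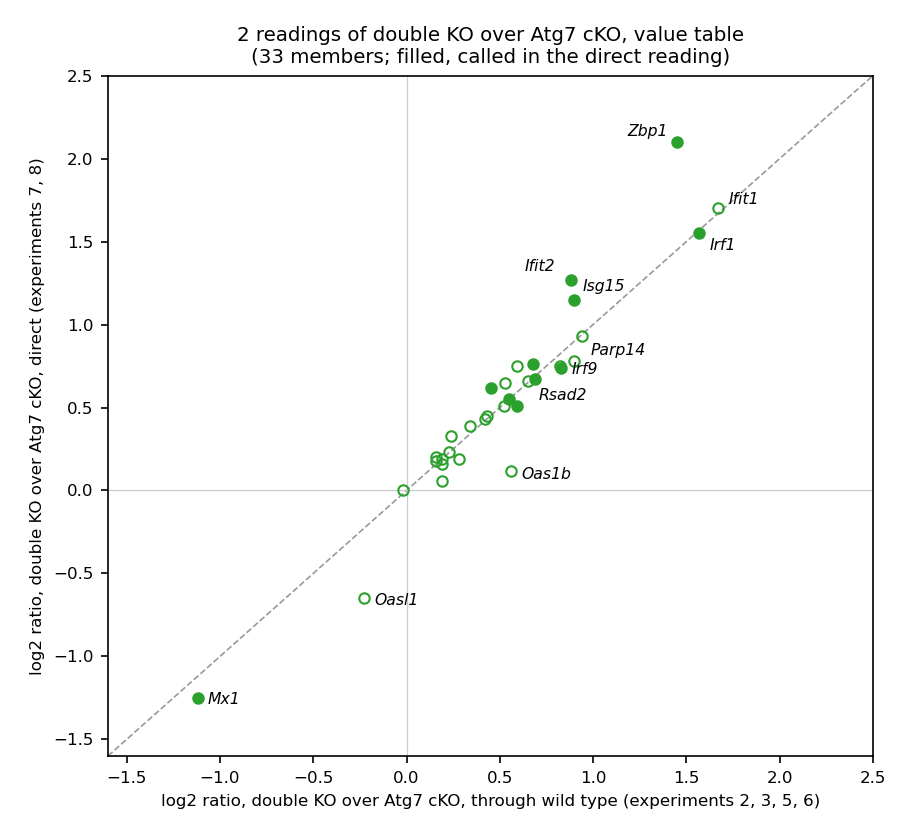
Log2 ratio of double KO over Atg7 cKO for the 33 tested members, through wild type (x axis, experiments 2, 3, 5 and 6) and directly (y axis, experiments 7 and 8), both from the deposited log ratios; filled points were called in the direct reading and the dashed line marks equal values. Most points lie near the line above 0, Zbp1 lies above it, and Mx1 and Oasl1 lie in the lower left.

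The interaction asks whether loss of Nrf2 had a different effect with and without Atg7 (double KO minus Atg7 cKO minus Nrf2 KO, on the log2 scale). By limma 0 of 33 members were called higher and 0 lower, where 0.14% of all genes were called higher and 0.609% lower, and 14 members and 2377 genes had an unadjusted p under 0.05. The lowest limma adjusted p-values were 0.087 for Irf1 (1.45, 95% interval 0.83 to 2.08) and 0.0913 for Zbp1 (1.24, 0.69 to 1.79). The median was 0.39, and 30 of the 33 were above 0. With the sets of experiments as a block, 2 members were called higher, Zbp1 and Rtp4. With the 12 arrays fitted singly 9 were called higher and 1 lower, so these calls depend on how the spread is estimated.

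Beyond the 34, other genes of the pathway were taken from a list of 111 further genes of interferon signalling and response, of which 99 had a probe and 87 were tested. In Atg7 cKO 54 of 87 were called higher and 3 lower (median 0.36), in double KO 64 higher and 3 lower (median 0.60). Of all genes 23.4% were called higher and 16.3% lower in the former, and 21.4% and 16% in the latter. In the direct comparison 27 were called higher and 4 lower (median 0.50), in Nrf2 KO 0 either way, and through wild type 13 higher and 2 lower. The shares of all genes were 6.75% higher and 8.07% lower in the direct comparison, and 1.75% and 3.23% through wild type.

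Interferons themselves were measured only in part. Of 13 ligand genes with a probe, 6 were tested, and Ifnb1, Ifna4, Ifna12, Ifnk, Ifne1 and Il28b were well above background in 0 of 24 channels. Ifnz and Ifna13 were well above background in 24 channels, Ifnab in 23, Ifna9 in 19 and Ifna5 in 14. In Atg7 cKO 0 of 6 ligands were called by limma and 0 had an unadjusted p under 0.05, with ratios from -0.11 (Ifna5) through -0.09 (Ifna13), -0.07 (Ifnab), 0.00 (Ifna9) and 0.05 (Ifnz) to 0.13 (Ifng). In double KO Ifng, the interferon of T and NK cells, was called higher (0.53 ± 0.23, adjusted p = 0.00999) and Ifnz lower (-0.21 ± 0.01, adjusted p = 0.0193), while Ifna5, Ifna9, Ifna13 and Ifnab had -0.10, -0.06, -0.06 and -0.06. No Ifng probe was well above background in more than 9 of 24 channels. Of all genes 23.4% were called higher and 16.3% lower in Atg7 cKO, and 21.4% and 16% in double KO. In the direct comparison Ifng had 2.51 and 1.05 and was not called (adjusted p = 0.0819), and Ifnz had -0.58 ± 0.27 (adjusted p = 0.0345).

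Among the largest called ratios of the list in Atg7 cKO were those of Oas1f (2.16), Ifi27 (1.97), Cmpk2 (1.93), Plscr1 (1.76), Ifi30 (1.56) and the interferon gamma receptor subunit Ifngr1 (1.5). In double KO they included Gvin1, a large interferon-induced GTPase (3.17 ± 0.05), Oas1f (2.68), Plscr1 (2.54), Ifi27 (2.48), Cmpk2 (2.43) and Tnfaip3, a brake on NF-kappaB (2.14). Directly they included Socs1, which blocks the receptor kinases (2.25 ± 0.98), Gvin1 (2.22 ± 0.35), Batf2 (1.87 ± 1.03), Tnfaip3 (1.51 ± 0.60) and Oas1e, which was lower (-1.58 ± 0.02). Through wild type Gvin1 (2), Socs1 (1.41), Batf2 (1.08) and Tnfaip3 (0.98) were called higher and Oas1c (-0.91) lower. Gvin1 was also the gene of the 87 with a called interaction (1.88, adjusted p = 0.0376).

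Markers of several other cell types, among them 13 of 17 macrophage markers in Atg7 cKO, were called higher in the livers where these genes were. The shares of all genes called higher, to set beside the counts, were 23.4% in Atg7 cKO, 21.4% in double KO and 6.75% directly. The counts of B cell markers in Atg7 cKO and in double KO, of neutrophil markers in Atg7 cKO, and of macrophage markers directly, lie near those shares. Of 17 macrophage markers 13 were called higher in Atg7 cKO and 15 in double KO, 0 lower in either; their summed signal was 9817 to 13740 in wild type, 39951 to 57293 in Atg7 cKO and 64008 to 67297 in double KO. In the direct comparison 2 were called higher and 1 lower, against 6.75% and 8.07% of all genes, with medians of 0.58 and -0.06 in its experiments. Of 11 tested T and NK cell markers 4 were called higher in Atg7 cKO, 7 in double KO and 7 in the direct comparison; the sum was 765 to 811 in wild type, 825 to 946 in Atg7 cKO and 1073 to 1264 in double KO. Ncr1 was above background in 0 channels. Neutrophil markers (7 tested, 2, 4 and 2 called higher) summed to 576 to 743, 843 to 1535 and 2959 to 4855, with Elane in 0 channels. Dendritic cell markers (5 tested, 2, 3 and 0 called higher) summed to 406 to 498, 531 to 674 and 693 to 820, with Cd209a in 0 channels. B cell markers (4 tested, 1, 1 and 0) summed to 352 to 406, 436 to 452 and 541 to 577. The signals include the offset of 50, so each dim marker adds a floor to the sum of its list. Oas1g, well above background in 0 channels, still read 5.76 to 5.87 on the log2 scale in wild type. Steps in the sums of dim lists are therefore shrunk and cannot be set beside those of the macrophage sum.

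Plasmacytoid dendritic cells are a major source of interferon alpha. Of 6 tested markers 1 was called higher in Atg7 cKO and 3 in double KO, and in the direct comparison 1 was called higher and 1 lower. The Atg7 cKO count is below the 23.4% of all genes called higher. The median log2 ratio of the 6 markers was -0.02 in Atg7 cKO and 0.37 in double KO, the opposite order to their sum. Their sum of 544 to 1124 in wild type, 9819 to 11446 in Atg7 cKO and 2461 to 3413 in double KO includes Ly6d, a marker with a log2 ratio of 4.08 in Atg7 cKO, 3.38 in double KO and -2.10 in the direct comparison. Siglech, a defining marker of these cells, was above background in 2 of 24 channels. Of 10 hepatocyte markers 8 were called lower in both Atg7 cKO and double KO, where 16.3% and 16% of all genes were called lower. Directly 1 was called higher and 0 lower, against 6.75% and 8.07% of all genes. The hepatocyte sum was 82864 to 128176 in wild type, 46626 to 49945 in Atg7 cKO and 47795 to 75083 in double KO. Of 10 endothelial markers 2 were called higher in Atg7 cKO and 1 higher and 5 lower in double KO, where 23.4% of all genes were called higher in the former and 21.4% higher and 16% lower in the latter, with sums of 3204 to 3573, 3047 to 3507 and 2016 to 2785. In Nrf2 KO 0 of the 70 tested markers of these 8 lists were called by limma, and 2 had an unadjusted p under 0.05. The part of these cell types in the ratios of the interferon response genes was not tested.

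**Figure D5:**
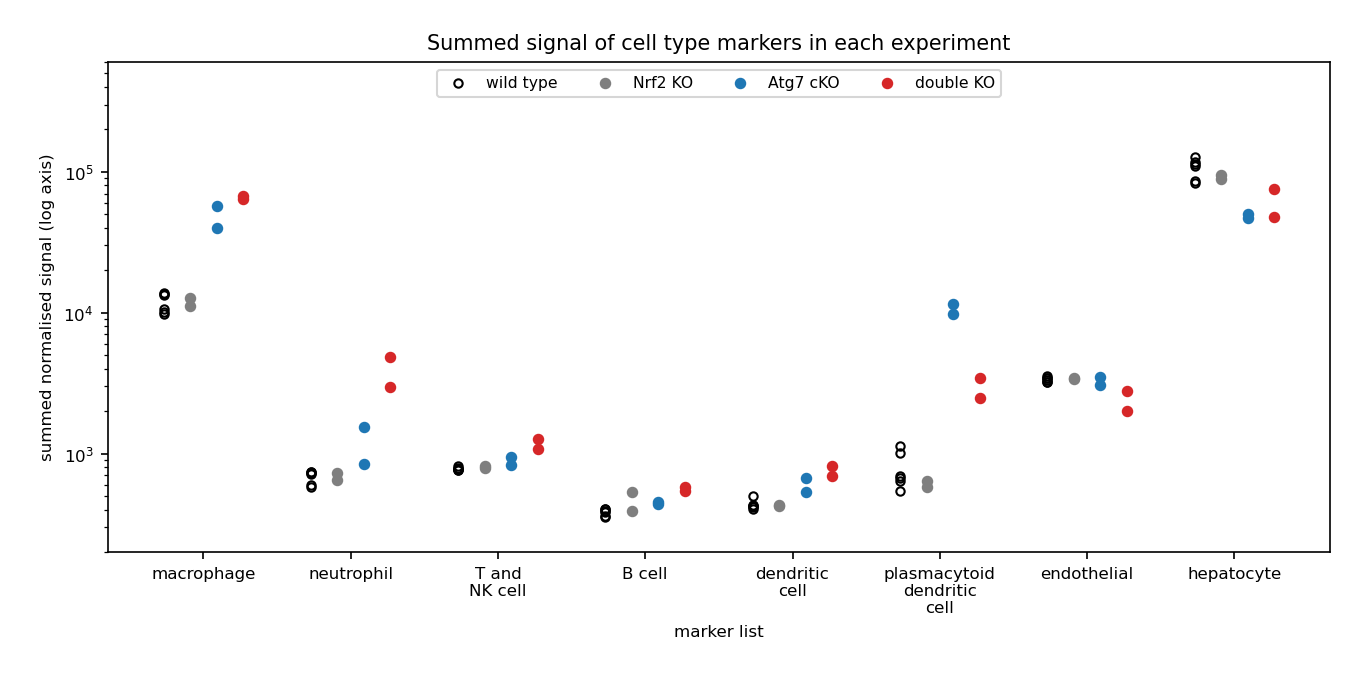
Summed normalised signal (log y axis) of 8 cell type marker lists in each experiment of wild type (open circles), Nrf2 KO, Atg7 cKO and double KO (filled circles). Macrophage and neutrophil sums rise from wild type to double KO, and the hepatocyte sum is lower in both Atg7-deficient groups. The plasmacytoid dendritic cell sum, which includes Ly6d, is highest in Atg7 cKO, where the median log2 ratio of these markers was -0.02.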

How the data were processed

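Liver RNA was compared on 2-colour Agilent arrays. The deposited scanner files hold spot intensity from Agilent Feature Extraction 9.5.1.1, per the file headers (9.5.1 per the submitters' processing notes). The deposited value table holds log10 ratios of processed signals. It was converted to log2 and is the source of the direct comparison. An array's ratio was turned to knockout over partner by the dyes in the labels.

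Mean and background intensity were corrected with normexp (offset 50) and loess in limma 3.58.1 (R 4.3.3), with control spots at weight 0 and outlier spots left out. The offset shrinks the ratios of dim probes. Dye swaps were averaged. Probes needed 4 of 24 channels well above background, and a gene is its brightest kept probe under the name in the scanner files. For 16427 genes limma fitted 3 group means over experiments 1 to 6, and 4 group means over 8 experiments for the direct comparison. Calls use a Benjamini-Hochberg adjusted p under 0.05. The number of arrays limits the precision.

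The members and lists were chosen with earlier results of these data known. Every member with a probe is named, with other probes where they differ by over 1 log2 unit or in call, and of the further pathway genes the ligands and up to 6 called genes of largest absolute ratio in each comparison; 1 gene that this rule names is not reported here. Alternatives were other signals, offsets, filters, probe rules, names, blocks and leaving out each experiment. The fit was checked on simulated data.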

Additional observations from a re-analysis of the deposited data

Results flagged for a closer look

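Gvin1, which is not a member of the 34, had a called interaction of 1.88 on the log2 scale by limma (adjusted p = 0.0376, over all genes): the log2 ratios to wild type were 0.11 (Nrf2 KO), 1.18 (Atg7 cKO) and 3.17 (double KO). Among the wild-type signals of the 34 members, 2 genes had an experiment far from the other 5. Rsad2 read 7.66 in experiment 1, with the others up to 8.33, and Eif2ak2 read 7.22 in experiment 4, with the others down to 7.02. Chance alone gives such a gap in about 1 of 20 groups, and 34 were looked at.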

How the results depend on the processing

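No called member turned its direction under any alternative run. In Atg7 cKO 25 to 30 members were called higher under the other settings and 20 to 29 without an experiment (20 without experiment 2 or 5), in double KO 30 to 33 and 24 to 33 (24 without experiment 3), and in Nrf2 KO 0. Slide as a block, the sets as a block and the 12 arrays fitted singly each called 1 member lower in Atg7 cKO, Irf9. The direct count of 10 higher and 1 lower became 0 and 0 with experiments 7 and 8 alone, 18 and 2 with the 16 arrays fitted singly, and 1 to 8 and 0 to 1 without an experiment; the filter at 12 channels gave 0 lower, since Mx1 drops out. Through wild type, 3 higher became 0 by the deposited log ratios, 11 with the sets as a block, 15 with the 12 arrays fitted singly, and 0 to 1 without an experiment. The count lower, 0, became 1 with offset 10, the sets as a block or the 12 arrays. The interaction had 2 higher with the sets as a block, and 9 higher and 1 lower with the 12 arrays. Calls over all 16427 genes moved as well. In the direct comparison 1109 higher became 9 with experiments 7 and 8 alone and 2028 with the 16 arrays. Through wild type 288 higher became 48 by the deposited log ratios, 588 with the sets as a block and 1124 with the 12 arrays. For the interaction 23 higher became 92 with the sets as a block and 473 with the 12 arrays. The cause was not tested. The comparisons share no replicate number, and the sets as a block is the matched fit that was run. With 2 experiments a comparison, small ratios and probes near background are the least certain.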

Other observations

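Wild-type signals of some members differed between the sets of experiments. The mean log2 signal in experiments 1 to 3 and in experiments 4 to 6 was 7.23 and 8.05 for Ifit1, 9.73 and 10.55 for Rtp4, and 9.37 and 10.05 for Parp14. In both sets 11 of 33 members had a higher wild-type signal on the double KO array pair than on the Nrf2 KO array pair, and 5 had a lower one. For Zbp1 the wild-type signal was 7.66 and 8.55 beside Nrf2 KO, 8.18 and 8.73 beside Atg7 cKO, and 9.63 and 9.36 beside double KO.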
